A study of Mus musculus with 26 samples.

Results

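The genes described are 43 members of the WNT pathway, taken by symbol from the probe annotation: 19 WNT ligands, 10 Frizzled receptors, the 2 co-receptors Lrp5 and Lrp6, 5 secreted Frizzled-related proteins (Sfrp1, Sfrp2, Sfrp4, Sfrp5 and Frzb), 4 Dickkopf proteins, and the target genes Axin2, Lef1 and Nkd1. All 43 were measured on both array versions, among 19938 named genes on Mouse Gene 1.0 ST arrays and 22180 on Mouse Gene 2.0 ST arrays. The study made mouse pineoblastoma (PB), a malignant tumor of the pineal gland, with a WAP-Cre transgene (Cre recombinase under the whey acidic protein promoter, a line made for the mammary gland), which was found to be expressed in the pineal gland, in a mixed genetic background. Version 1.0 arrays carried 11 Rb/p53-deleted PBs (WAP-Cre with floxed Rb and floxed p53), 5 Rb/p53-mutated PBs (WAP-Cre with floxed Rb, 1 floxed p53 allele and 1 conditional knock-in allele of a stable p53 point mutant) and 3 samples of normal cerebellum. Version 2.0 arrays carried 3 Dicer1/p53-deleted PBs (floxed Dicer1, in which the second RNase III domain is mostly removed, and floxed p53), 3 Rb/Dicer1/p53-deleted PBs, in which Rb was deleted as well, and 1 more Rb/p53-deleted PB. The ages of the animals were not given in the labels, each array was 1 sample, and the reference tissue was cerebellum, so a gene that differs between pineal gland and cerebellum cannot be told apart from one that differs between tumor and normal pineal gland.

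WNT ligands are secreted lipid-modified proteins that bind Frizzled receptors. With the co-receptors Lrp5 and Lrp6, a bound Frizzled stabilizes beta-catenin, which then acts with Tcf and Lef factors on target genes, among them the feedback inhibitors Axin2 and Nkd1; other ligands act through Frizzleds on cell polarity without beta-catenin. Secreted Frizzled-related proteins bind ligands outside the cell, and Dickkopf proteins block the co-receptors.

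The values were log2 intensities after robust multi-array averaging (RMA), in which a difference of 1 is a 2-fold difference. The deposited version 1.0 arrays did not share 1 distribution: their medians were 7.90 to 8.01 in the Rb/p53-deleted PBs and cerebellum and 7.04 to 7.12 in the Rb/p53-mutated PBs, so all values given for this version are quantile-normalized over its 19 arrays, and for the mutated tumors genotype and array distribution cannot be told apart. Among the Rb/p53-deleted PBs, PB11 had the wider deposited interquartile range of the cerebellum arrays (3.24, against 2.57 to 2.87 in PB1 to PB10). The 14 measured pinealocyte and photoreceptor markers averaged 10.6 to 11.1 in the Rb/p53-deleted PBs and 6.86 to 7.24 in cerebellum, with Crx, Otx2 and Tph1 high in every tumor, whereas Aanat, the melatonin pathway enzyme, was at 6.91 to 7.45 in the version 1.0 tumors and 6.93 to 6.99 in cerebellum. On version 2.0 arrays Crx was 9.79 to 10.82 in the 7 tumors and Aanat 4.38 to 6.48, while Tph1 ran from 7.08 to 11.01 and the marker average from 6.96 to 8.55, with Rb/Dicer1/p53-deleted PB1 lowest for both. Where the probes of the targeted genes lie relative to the deleted exons is not given in the sources used here: Rb1 was 9.64 to 10.61 in the Rb/p53-deleted PBs and up to 10.09 in cerebellum, which lay within that range, but on version 2.0 arrays it was 8.30 to 8.79 in the 3 Rb/Dicer1/p53-deleted PBs and 9.52 to 9.97 in the 3 Dicer1/p53-deleted PBs, without overlap, with PB12 between them at 9.07. Dicer1 did not separate the models on these arrays: it was 7.75 to 8.28 in the 6 tumors with Dicer1 deleted and 8.27 in PB12. A background level was set for each group at the 95th percentile of the olfactory and vomeronasal receptor genes, which these tissues are not known to use; on version 1.0 arrays it was 6.98 in Rb/p53-deleted PBs, 6.96 in cerebellum and 7.18 in Rb/p53-mutated PBs. In these bulk samples, fewer cells of a type and less RNA per cell cannot be told apart.

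Against cerebellum, the WNT genes of Rb/p53-deleted PBs moved in both directions, with Wnt7a, Wnt3, Fzd1, Fzd7, Sfrp1 and Sfrp4 lower and Fzd2, Wnt2b and Lrp5 higher by a measured 1 or more on the log2 scale. In limma at a Benjamini-Hochberg adjusted p under 0.01, 11 of the 43 were higher and 11 lower; of all named genes 25% were higher and 27.7% lower, so the members' shares of 25.6% each way were close to the background. In Rb/p53-mutated PBs, compared with the same 3 cerebellum samples, 3 members were higher (all genes 23.8%) and 17 lower (27.6%), shares of 6.98% and 39.5%. Of the olfactory and vomeronasal receptor genes, which set the background level, 34% were higher and 5.43% lower there, with a median difference of 0.27. In Rb/p53-deleted PBs these were 12.4% and 12.3%, with a median of 0.03. On the deposited scale all genes of the mutated tumors shifted by a median of -0.92 against cerebellum, and the members by -0.93. After quantile normalization, the median difference over the members was 0.07 in Rb/p53-deleted PBs, beside 0.01 over all genes, and -0.11 in Rb/p53-mutated PBs, beside -0.02. Both comparisons share their control samples, so they are given side by side and not as support for each other.

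**Figure D1:**
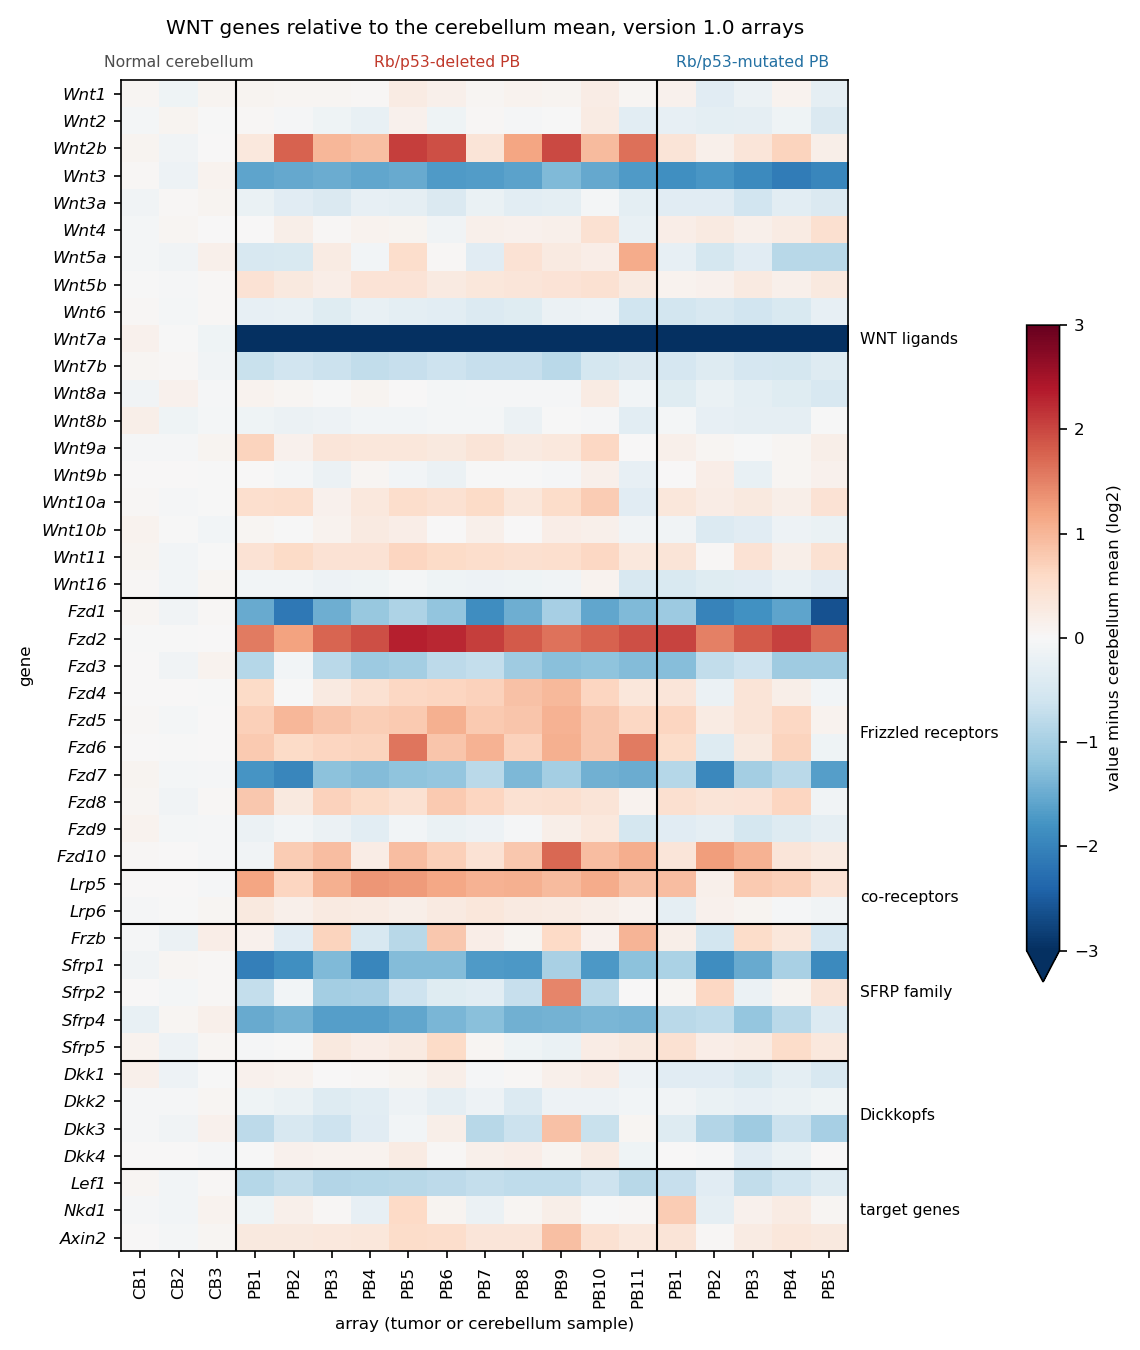
Value of each of the 43 WNT genes (rows, grouped by role) on each version 1.0 array (columns: 3 cerebellum samples, then 11 Rb/p53-deleted and 5 Rb/p53-mutated tumors), minus the mean of the 3 cerebellum samples, on the log2 scale; the color scale ends at -3 and 3, and Wnt7a lies beyond it. Wnt7a and Wnt3 are lower and Fzd2 is higher in all 16 tumors, while Wnt2b varies from tumor to tumor.

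Among the ligands, the greatest change was in Wnt7a, which in the cerebellum is made by granule neurons and acts on the mossy fiber axons that contact them. Wnt7a was 9.89, 9.73 and 9.63 in the 3 cerebellum samples, 6.09 to 6.43 (median 6.26) in the 11 Rb/p53-deleted PBs, and 6.72, 6.42, 6.46, 6.66 and 6.57 in Rb/p53-mutated PB1 to PB5. The groups did not overlap, and the gene was at background in every tumor. The measured difference from cerebellum was -3.49 (SE 0.07, limma adjusted p = 1.5e-15) in Rb/p53-deleted PBs and -3.19 (SE 0.10, adjusted p = 8.9e-09) in Rb/p53-mutated PBs. Since the tumors were at background, these stand for falls of at least 2.77 and 2.57, the cerebellum mean minus the background level of the tumors. Beside it, the granule neuron markers averaged 12.4 in cerebellum against 8.64 to 9.34 in Rb/p53-deleted PBs and 8.33 to 8.77 in Rb/p53-mutated PBs, with 10 of the 12 markers lower in each model; their part in the Wnt7a result was not tested.

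Wnt3, a beta-catenin-type ligand known from Purkinje neurons, was also lower. It was 8.32, 8.13 and 8.39 in cerebellum, 6.57 to 6.95 (median 6.72) in Rb/p53-deleted PBs, and 6.43, 6.54, 6.38, 6.18 and 6.33 in Rb/p53-mutated PBs. Every tumor was below every cerebellum sample and below the background level of its group. The measured differences were -1.56 (SE 0.08, limma adjusted p = 4.3e-11) and -1.91 (SE 0.10, adjusted p = 2.5e-07), which stand for falls of at least 1.30 and 1.10. The 9 measured Purkinje markers were all lower in both models, with averages of 12.0 in cerebellum, 7.46 to 8.46 in Rb/p53-deleted PBs and 7.59 to 7.77 in Rb/p53-mutated PBs, and their part in the Wnt3 result was not tested. Wnt9b, the direct neighbor of Wnt3 in the annotation, was 8.07 in cerebellum and 8.02 in Rb/p53-deleted PBs on average (difference -0.05, adjusted p = 0.56).

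Wnt2b, a beta-catenin-type ligand known from the cortical hem and the ciliary margin of the developing eye, was higher in Rb/p53-deleted PBs. It was 7.07, 6.88 and 6.98 in cerebellum, close to the background level, and 7.30 to 9.06 (median 8.15) in the 11 tumors, all of which were above cerebellum. In Rb/p53-mutated PBs it was 7.37, 7.12, 7.35, 7.64 and 7.16, also above every cerebellum sample but near the background level of that group. The difference was 1.29 (SE 0.33, limma adjusted p = 0.0031) in Rb/p53-deleted PBs and 0.35 (SE 0.12, adjusted p = 0.030), which did not pass the threshold, in Rb/p53-mutated PBs. The first call was lost without any 1 of the cerebellum samples (differences 1.24 to 1.33, adjusted p 0.012 to 0.017). With PB11 and cerebellum set as a block, the difference rests on 1 tumor, as PB11 minus the cerebellum mean, and was 1.66.

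The other ligands differed by less than 1. In Rb/p53-deleted PBs, Wnt7b (-0.64, SE 0.07), Wnt3a (-0.28) and Wnt6 (-0.30) were lower, and Wnt11 (0.50, SE 0.07, adjusted p = 1.3e-05) and Wnt5b (0.35, SE 0.06, adjusted p = 1.9e-04), both known for signaling on cell polarity and movement, were higher. That made 3 ligands higher (15.8%; all genes 25%) and 5 lower (26.3%; all genes 27.7%) of 19, shares not above the background. The Wnt3a call was lost without cerebellum 2 or 3 (adjusted p 0.028 and 0.037), and the Wnt6 call without any 1 cerebellum sample (adjusted p 0.010 to 0.024). In PB11 alone minus the cerebellum mean, the differences were -0.30 for Wnt3a, 0.32 for Wnt11 and 0.26 for Wnt5b. In Rb/p53-mutated PBs, Wnt10a was higher (0.29, adjusted p = 0.0097; -0.64 with the values as deposited) and 8 ligands were lower (42.1%; all genes 27.6%): besides Wnt7a and Wnt3, these were Wnt5a (-0.55), Wnt6 (-0.47), Wnt7b (-0.47), Wnt3a (-0.40), Wnt16 (-0.35) and Wnt8a (-0.34). Of these Wnt5a, Wnt6, Wnt3a, Wnt16 and Wnt8a, and Wnt6 in Rb/p53-deleted PBs, were at background in the tumors, so their falls are not sized. The calls of Wnt10a, Wnt5a, Wnt8a, Wnt16 and Wnt3a were lost in at least 1 fit without 1 sample (adjusted p 0.0108 to 0.0496). The ligands that did not pass in Rb/p53-deleted PBs differed by -0.13 (Wnt16) to 0.39 (Wnt10a).

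The mean of 17 of the 19 ligands was above the background level in cerebellum, of 14 in Rb/p53-deleted PBs and of 8 in Rb/p53-mutated PBs. Of all genes 71.1%, 70.8% and 66.1% were above it. That level was higher in the mutated tumors (7.18) than in the deleted tumors (6.98). Wnt3a (7.15) and Wnt10b (7.01) in the mutated tumors lay between these levels and were counted as not above background. Wnt1 and Wnt8b were at background in all groups on version 1.0 arrays (means 5.88 to 6.09 and 6.20 to 6.37), and differences among such genes have little range. By the annotation 4 pairs of ligand genes are direct neighbors (Wnt6 and Wnt10a, Wnt3a and Wnt9a, Wnt9b and Wnt3, Wnt10b and Wnt1). In Rb/p53-deleted PBs against cerebellum no pair was called in the same direction in both of its genes. Between the tumor models Wnt10b (-0.34) and Wnt1 (-0.22, at background in both models) were both lower in the mutated tumors. With 4 pairs, nothing is read from this about neighbors.

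The promoters of Wnt11 and Wnt5b are shown because both ligands were higher in Rb/p53-deleted PBs and are the members whose promoter windows held the core Tcf/Lef motif CTTTGAT, searched on both strands (ATCAAAG on the reverse). Windows of 300 bases, 250 before and 50 after a start site, were present for 29 of the 43 members (35 windows, RefSeq, GRCm38.p6), and 2 of them held the motif (5.71%), as did 3.73% of all 32851 windows. The promoter of Axin2, the standard target gene of the pathway, is shown beside them; these letters were not in its window. Each is the 250 bases before the start site, 5′ to 3′ on the strand of the gene, with the motif in capitals: Wnt11 at chr7:98834862-98835111 (plus strand, 1 of 2 annotated starts), Wnt5b at chr6:119449387-119449636 (minus strand, 1 of 3 annotated starts) and Axin2 at chr11:108920099-108920348 (plus strand). In Wnt11 the motif began 51 bases before the start and in Wnt5b 71 bases before it. A match is a description of the letters and not a binding site.
Wnt11: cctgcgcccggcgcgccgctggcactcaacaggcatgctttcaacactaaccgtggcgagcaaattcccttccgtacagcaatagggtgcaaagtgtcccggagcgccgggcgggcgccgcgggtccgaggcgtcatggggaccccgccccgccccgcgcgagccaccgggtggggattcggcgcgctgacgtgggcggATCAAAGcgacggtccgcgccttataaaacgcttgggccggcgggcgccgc
Wnt5b: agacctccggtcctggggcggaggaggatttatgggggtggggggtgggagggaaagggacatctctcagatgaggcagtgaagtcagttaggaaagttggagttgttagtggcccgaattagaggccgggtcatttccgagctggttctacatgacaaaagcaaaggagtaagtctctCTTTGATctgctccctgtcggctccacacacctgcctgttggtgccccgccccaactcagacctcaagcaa
Axin2: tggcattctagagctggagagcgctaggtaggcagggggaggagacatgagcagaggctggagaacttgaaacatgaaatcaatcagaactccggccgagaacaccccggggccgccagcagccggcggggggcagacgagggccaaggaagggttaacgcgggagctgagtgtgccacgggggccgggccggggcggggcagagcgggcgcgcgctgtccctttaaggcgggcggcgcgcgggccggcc

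Frizzled receptors changed in both directions, and Fzd2 stood out on the higher side. Fzd2 was 8.08, 8.08 and 8.09 in cerebellum, 9.29 to 10.41 (median 9.91) in Rb/p53-deleted PBs, and 10.12, 9.58, 9.93, 10.14 and 9.78 in Rb/p53-mutated PBs. All 16 tumors were above the cerebellum samples by more than 1. The differences were 1.84 (SE 0.17, limma adjusted p = 1.1e-07) and 1.83 (SE 0.13, adjusted p = 1.7e-06).

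Fzd1 and Fzd7, both receptors for beta-catenin-type ligands, were lower. Fzd1 was 10.12, 9.95 and 10.08 in cerebellum, 7.90 to 9.11 (median 8.59) in Rb/p53-deleted PBs, and 8.96, 8.05, 8.24, 8.46 and 7.43 in Rb/p53-mutated PBs. Fzd7 was 10.14, 9.995 and 10.01 in cerebellum, 8.08 to 9.23 (median 8.74) in Rb/p53-deleted PBs, and 9.18, 8.12, 9.04, 9.25 and 8.40 in Rb/p53-mutated PBs. Neither gene's tumors overlapped cerebellum, and the tumors stayed above the background level. The differences were -1.42 (SE 0.19, adjusted p = 8.5e-06) and -1.34 (SE 0.18, adjusted p = 5.8e-06) for Fzd1 and Fzd7 in Rb/p53-deleted PBs, and -1.82 (SE 0.28) and -1.25 (SE 0.25) in Rb/p53-mutated PBs, where Fzd7 lost its call without cerebellum 1 (-1.20, adjusted p = 0.011). Most astrocyte and Bergmann glia markers were lower too. In Rb/p53-deleted PBs 9 of 12 were lower and 2 higher, with averages of 8.34 to 9.02 against 10.8 to 10.9 in cerebellum. In Rb/p53-mutated PBs 8 of 12 were lower and 2 higher, with averages of 8.42 to 8.73. The part of these markers in the Fzd1 and Fzd7 results was not tested.

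Of the other Frizzleds, Fzd3, which works in axon guidance and planar polarity, was lower in both models (-0.92, SE 0.19, and -0.95, SE 0.15). Besides Fzd2, the Frizzleds that were higher in Rb/p53-deleted PBs were Fzd6 (0.94, SE 0.19), a planar polarity receptor, Fzd5 (0.84, SE 0.09), known from retinal progenitors, Fzd4 (0.55, SE 0.15), the Norrin receptor of retinal vessels, and Fzd8 (0.52, SE 0.12). None of these passed against cerebellum in Rb/p53-mutated PBs, where they differed by 0.13 (Fzd4) to 0.40 (Fzd5) and Fzd9 was lower (-0.36, SE 0.09; call lost without any 1 cerebellum sample or without PB4, adjusted p 0.011 to 0.029). The Fzd4 call was lost without any 1 cerebellum sample (0.54 to 0.56, adjusted p 0.019 to 0.022), and the Fzd8 call without cerebellum 2 (0.47, adjusted p = 0.014). In PB11 alone minus the cerebellum mean, the differences were 0.35 for Fzd4 and 0.10 for Fzd8. Fzd10 differed by 0.77 (SE 0.25, adjusted p = 0.014), just outside the threshold. In total 5 Frizzleds were higher and 3 lower of 10 in Rb/p53-deleted PBs, and 1 higher and 4 lower of 10 in the mutated tumors; all genes were 25% and 27.7%, and 23.8% and 27.6%.

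**Figure D2:**
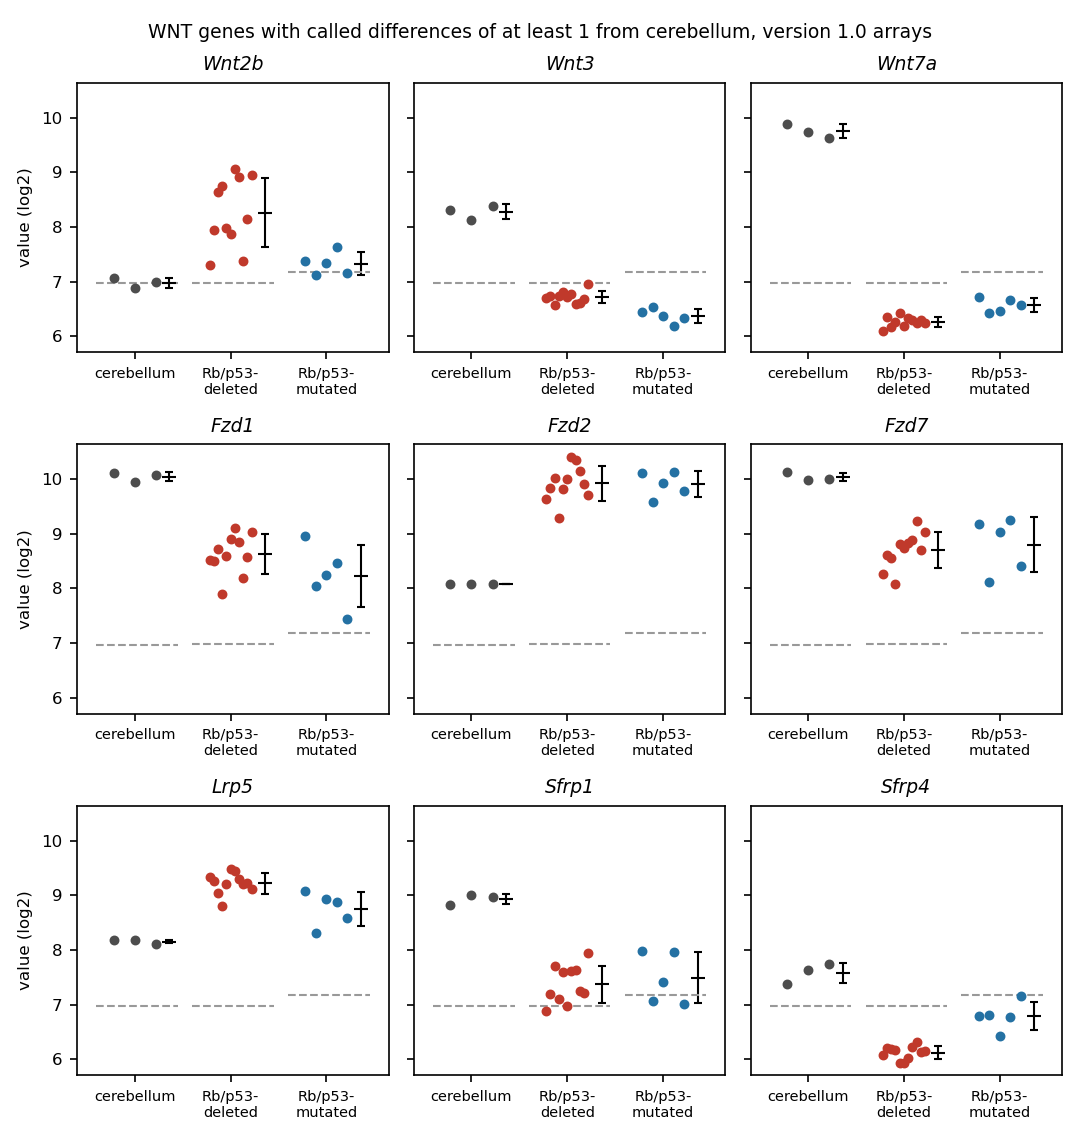
Values (log2, y axis) of the 9 WNT genes with a called difference of at least 1 from cerebellum, in 3 cerebellum samples, 11 Rb/p53-deleted tumors and 5 Rb/p53-mutated tumors on version 1.0 arrays; points are samples, bars the mean and SD, and dashed lines the background level of each group. Wnt3 and Wnt7a lie below the background level in all tumors, while Fzd1, Fzd7 and Fzd2 remain above it.

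The co-receptor Lrp5 was higher in both models. It was 8.17, 8.17 and 8.12 in cerebellum, 8.80 to 9.49 (median 9.23) in Rb/p53-deleted PBs, and 9.08, 8.30, 8.93, 8.88 and 8.58 in Rb/p53-mutated PBs. No tumor overlapped cerebellum, and Rb/p53-mutated PB2 was the nearest to it. The difference was 1.07 (SE 0.11, limma adjusted p = 3.2e-07) in Rb/p53-deleted PBs and 0.60 (SE 0.16, adjusted p = 0.0096) in Rb/p53-mutated PBs, and the second turned to -0.39 with the values as deposited, beside the shift of all genes, and lost its call without any 1 of the samples other than PB2 (0.52 to 0.64, adjusted p 0.010 to 0.037).

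Lrp6, the other co-receptor, had the highest mean of the members over all arrays of each version, which here only decides that its values are given. It was 9.66, 9.69 and 9.75 in cerebellum, 9.80 to 10.04 (median 9.95) in Rb/p53-deleted PBs, and 9.44, 9.83, 9.80, 9.67 and 9.60 in Rb/p53-mutated PBs. The difference in Rb/p53-deleted PBs was small (0.23, SE 0.06, adjusted p = 0.0035). It turned to -0.14 with the values as deposited, and the call was lost without cerebellum 1 or 2 (0.21 and 0.22, adjusted p 0.025 and 0.019). In PB11 alone minus the cerebellum mean, the difference was 0.10. The mutated tumors differed by -0.04 and did not pass.

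Among the secreted antagonists, Sfrp1 and Sfrp4 were lower in both models. Sfrp1, a ligand-binding antagonist, was 8.82, 8.998 and 8.97 in cerebellum, 6.89 to 7.95 (median 7.24) in Rb/p53-deleted PBs, and 7.98, 7.07, 7.41, 7.97 and 7.02 in Rb/p53-mutated PBs. The tumors did not overlap cerebellum and some were at the background level. The differences were -1.56 (SE 0.18, limma adjusted p = 1.7e-06) and -1.44 (SE 0.24, adjusted p = 5.1e-04).

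Sfrp4, from the same family, was 7.37, 7.64 and 7.73 in cerebellum, 5.93 to 6.32 (median 6.16) in Rb/p53-deleted PBs, and 6.78, 6.82, 6.42, 6.77 and 7.16 in Rb/p53-mutated PBs. All tumors were below cerebellum and below the background level of their group. The measured differences were -1.46 (SE 0.09, adjusted p = 4.5e-10) and -0.79 (SE 0.15), which stand for falls of at least 0.60 and 0.40, the second losing its call without cerebellum 3 (-0.71, adjusted p = 0.010). Meningeal fibroblast markers were lower as well in Rb/p53-deleted PBs (5 of 10, averages 7.38 to 8.17 against 8.56 to 8.63), and 4 of 10 in Rb/p53-mutated PBs; their part was not tested. Sfrp2, Sfrp5 and Frzb did not pass in either model (differences -0.38 to 0.35).

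No Dickkopf gene passed in Rb/p53-deleted PBs (differences -0.31 to 0.11 over the 4). In Rb/p53-mutated PBs, Dkk3, a divergent member of the family, was lower (-0.79, SE 0.15, adjusted p = 0.0013; 0.022 with all 19 arrays in 1 fit), as was Dkk1 (-0.38, SE 0.09, adjusted p = 0.0052), the classical co-receptor blocker. Dkk1 averaged 6.70 there, below the background level, so its fall is not sized, and its call was lost without PB3, cerebellum 1 or cerebellum 3 (-0.30 to -0.38, adjusted p 0.013 to 0.032).

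The 3 target genes did not move together. Axin2 was higher in Rb/p53-deleted PBs (8.94 ± 0.18, SD, n = 11, against 8.51 ± 0.06, n = 3; difference 0.43, adjusted p = 0.0022), while Lef1, itself one of the Lef/Tcf factors, was lower (7.19 ± 0.08 against 7.98 ± 0.08; -0.79, SE 0.06, adjusted p = 1.9e-08), and Nkd1 differed by 0.05 (adjusted p = 0.74). The Axin2 call was lost without cerebellum 1 or 2 (0.44 and 0.40, adjusted p 0.010 and 0.017). In PB11 alone minus the cerebellum mean, the Axin2 difference was 0.33. In Rb/p53-mutated PBs, Lef1 was lower (-0.55, SE 0.11, adjusted p = 0.0017; 0.011 without cerebellum 1), and Axin2 (0.26) and Nkd1 (0.18) did not pass.

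**Figure D3:**
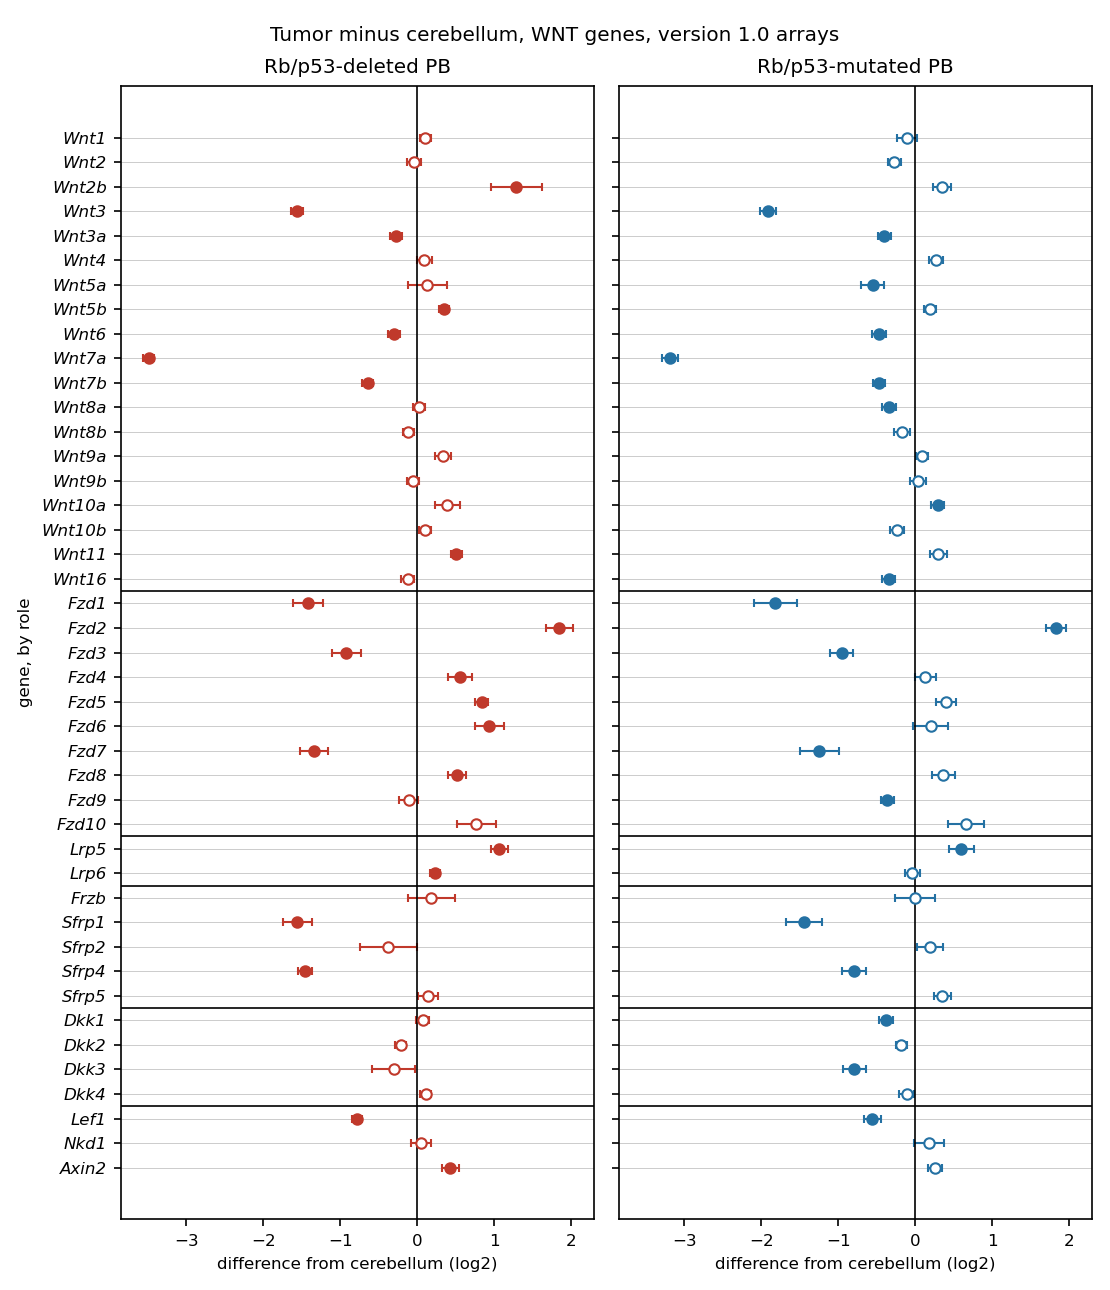
Difference from cerebellum (log2, x axis; points, with SE bars from limma) of each of the 43 WNT genes (y axis, by role) in Rb/p53-deleted PBs (left) and Rb/p53-mutated PBs (right); filled points passed an adjusted p under 0.01, and both panels use the same 3 cerebellum samples. Wnt7a, at background in the tumors, lies farthest left in both panels (-3.49 and -3.19) and Fzd2 farthest right (1.84 and 1.83).

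The tumor models were also compared with each other, without cerebellum. On the deposited scale the median difference, mutated minus deleted, was -1.02 over the members and -0.86 over all genes. After quantile normalization, at an adjusted p under 0.05, 4 members were higher in Rb/p53-mutated PBs (9.3%, all genes 20.7%) and 18 lower (41.9%, all genes 25.9%), each by less than 1. Of the ligands 11 of 19 were lower and 2 higher, of the Frizzleds 3 of 10 were lower, and both co-receptors were lower. The widest among members above background in at least 1 model were Wnt2b (-0.94, SE 0.27, adjusted p = 0.0081), Fzd6 (-0.74, SE 0.19, adjusted p = 0.0043), Wnt5a (-0.68, SE 0.21, adjusted p = 0.013) and Lrp5 (-0.47, SE 0.12, adjusted p = 0.0040), all lower in the mutated tumors, where Wnt5a was at background. Sfrp4 above (2.33% of members; 7.29% of all genes) and Dkk1, Wnt3 and Wnt8a below (6.98%; 8.36% of all genes) had no overlap between the 5 and the 11 tumors, shares no higher than the background. Sfrp4, Wnt7a, Wnt3 and Wnt1 were at background in both models, so no size is read from their differences. Meningeal fibroblast markers (4 of 10 higher, 1 lower) and endothelial and pericyte markers (4 of 12 higher, 0 lower) moved with the model too. So did microglia markers (8 of 11 higher, 1 lower), and the part of these markers was not tested. The members that were higher were Sfrp4, Wnt7a, Lef1 and Wnt7b, and the olfactory and vomeronasal receptor genes were higher beside them by a median of 0.24 (51.7% called higher); on the deposited scale, where all genes shifted by a median of -0.86, these 4 members were lower.

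Of the 59 other WNT pathway genes measured on version 1.0 arrays, 15 rose (25.4%; all genes 25%) and 12 fell (20.3%; 27.7%) in the deleted model against cerebellum, and 18 rose (30.5%; 23.8%) and 17 fell (28.8%; 27.6%) in the mutated model, shares near the background. The largest rises in Rb/p53-deleted PBs were in Myc, a growth-promoting transcription factor and a beta-catenin target in several tissues (2.60, SE 0.30), Wls, the carrier that brings WNT ligands to the cell surface (2.45, SE 0.09), and Prickle2, a planar polarity protein (2.01, SE 0.13). The mutated model had its largest rises in Myc (2.09, SE 0.34), the Groucho-type co-repressor Tle1 (1.81, SE 0.18) and Prickle2 (1.67, SE 0.22). The 3 genes that fell most in each model were Porcn, the enzyme that puts the lipid on WNT ligands (-2.44, SE 0.14, and -1.58, SE 0.12), Rspo3, a secreted enhancer of WNT signaling (measured -2.22, SE 0.14, and -2.21, SE 0.12; at background in the tumors, so at least 1.77 and 1.57 lower), and Ror1, a receptor kinase for Wnt5a (-1.66, SE 0.10, and -1.52, SE 0.18). Between the tumor models 15 of the 59 were higher (25.4%; all genes 20.7%) and 14 lower (23.7%; 25.9%) in the mutated tumors, led by the polarity cadherin Celsr3 (1.07, SE 0.23) and by Porcn (0.86, SE 0.12) on the higher side and by Wls (-0.86, SE 0.14) on the lower side.

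Within the Rb/p53-deleted PBs, 6 members had an SD above the 95th percentile of all genes, a selection made on these values: Sfrp2, Wnt2b, Frzb, Dkk3, Wnt5a and Fzd10. Sfrp2 was 6.80 to 9.30 (median 7.22, SD 0.70), with PB9 far above the rest, and PB9 was also highest for Dkk3 (9.11; range from 7.41) and Fzd10 (9.08; range from 7.26). Its meningeal fibroblast marker average was 7.68, within the range of the other tumors, and the part of these cells was not tested. PB11 was highest for Wnt5a (8.34; range from 6.73) and Frzb (8.31; range from 6.47). Among the Rb/p53-deleted PBs, PB11 also had the highest granule neuron (9.34), Purkinje (8.46), and astrocyte and Bergmann glia (9.02) averages. Its endothelial and pericyte (8.74), meningeal fibroblast (8.17) and choroid plexus (9.11) averages were the highest too, but not its oligodendrocyte (7.49) and microglia (8.74) averages. Ttr, a choroid plexus transcript, was 11.94 in PB11, 11.41 in PB3 and 6.20 to 6.82 in the other 9. The part of these cells in the PB11 values was not tested. For Wnt2b the tumors spread from 7.30 in PB1 and 7.37 in PB7 to 9.06 in PB5.

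**Figure D4:**
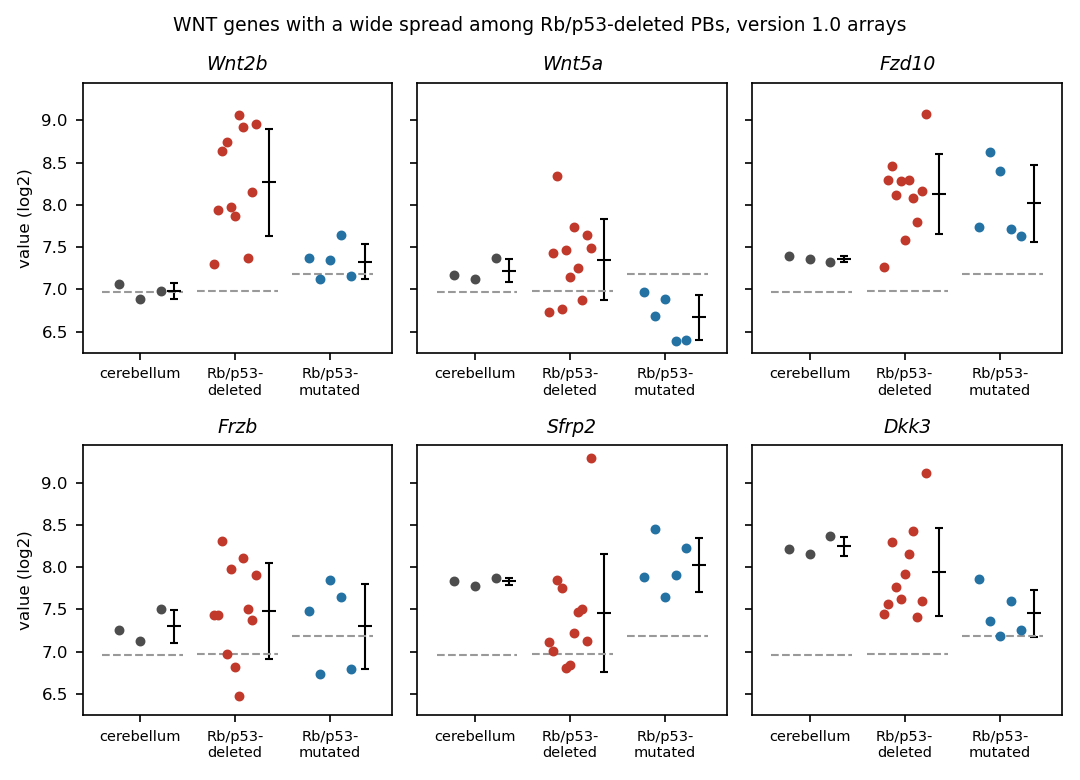
Values (log2, y axis) of 6 WNT genes whose spread among Rb/p53-deleted PBs was above the 95th percentile of all genes, in cerebellum and in the deleted and mutated tumors on version 1.0 arrays; points are samples, bars the mean and SD, and dashed lines the background level. PB9 is the single high point for Sfrp2 (9.30), Dkk3 (9.11) and Fzd10 (9.08), and PB11 for Wnt5a (8.34).

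On version 2.0 arrays, tumors with and without Rb deletion in the Dicer1/p53 model were compared. Their values have a scale of their own, with a background level of 4.97 to 5.08. No member passed an adjusted p under 0.05, and none of the 22180 genes did in limma (0% in each direction); 3 members and 1941 genes had an unadjusted p under 0.05. Under every alternative run, including leaving out each tumor, the count of called members was 0. The 3 members were Lrp5, Fzd8 and Sfrp2, and they also belonged to the 5 whose groups did not overlap, 1 above (all genes 7.37%) and 4 below (7.42%); the others were Wnt6 and Wnt10b, which differed by less than 0.2.

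Lrp5 was 6.22, 5.98 and 5.92 in the Dicer1/p53-deleted PBs and 7.05, 6.87 and 7.02 in the Rb/Dicer1/p53-deleted PBs (difference 0.94, SE 0.16, limma adjusted p = 0.37). The single Rb/p53-deleted PB, PB12, was at 7.27, nearer to the tumors with Rb deleted. Fzd8 was 5.52, 5.79 and 5.46 against 5.07, 4.46 and 4.44 (-0.93, SE 0.21, adjusted p = 0.44), with PB12 at 6.85, above both groups; PB2 and PB3 of the tumors with Rb deleted were below background. Sfrp2 was 6.19, 6.23 and 5.68 against 4.70, 4.75 and 4.66 (-1.33, SE 0.19, adjusted p = 0.36), with PB12 at 4.96, and so was at background in all tumors with Rb deleted. Sfrp2 has several transcript clusters on this version, and these values are of the cluster with the highest mean. The meningeal fibroblast markers averaged 7.18, 7.14 and 5.82 in the Dicer1/p53-deleted PBs and 5.97, 6.16 and 5.57 in the Rb/Dicer1/p53-deleted PBs; their part in the Sfrp2 values was not tested.

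Values are given next for Lrp6, Fzd6 and Fzd3, whose means over the version 2.0 arrays were the highest and which overlapped between the groups. Lrp6 was 9.61, 9.85 and 9.68 in Dicer1/p53-deleted PBs, 9.68, 9.40 and 9.24 in Rb/Dicer1/p53-deleted PBs and 9.81 in PB12. Fzd6 was 9.88, 8.61 and 9.48, then 8.81, 8.93 and 8.44, and 9.18 in PB12. Fzd3 was 8.22, 8.48 and 8.86, then 8.33, 8.30 and 7.96, and 7.68 in PB12. For these receptors the difference was within the spread of the tumors (Fzd6 -0.60, SE 0.32; Fzd3 -0.32, SE 0.21).

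Frzb varied more from tumor to tumor than between the Dicer1 models. It ran from 5.22 to 6.48 where Rb was intact and from 5.07 to 9.17 where Rb was deleted. Among the latter tumors PB3 alone was high (difference between the models 0.91, SE 0.93). Fzd7 was 5.28 to 5.85 in the 6 tumors of the Dicer1 models and 6.80 in PB12. Wnt7a and Wnt3, the ligands that were lower against cerebellum, were at background in these groups as well: means of 5.04 and 4.83 for Wnt7a and of 4.19 and 3.87 for Wnt3, with 4.89 and 4.17 in PB12. Wnt2b was 4.74 to 5.29 in the 7 tumors, about the background level. Members above the background level numbered 21, 21 and 20 of 43 in the Dicer1/p53-deleted PBs, the Rb/Dicer1/p53-deleted PBs and PB12. Of all genes 59.7%, 60.9% and 60.3% were above it in these groups.

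**Figure D5:**
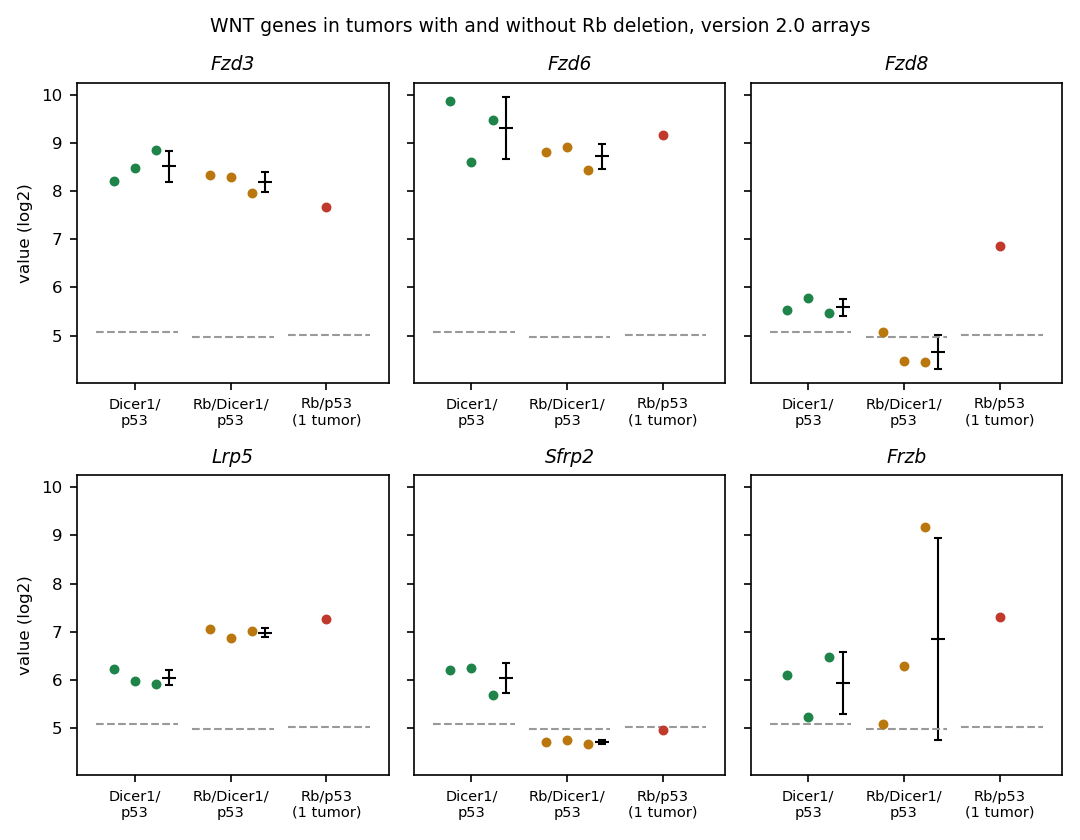
Values (log2, y axis) of 6 WNT genes in 3 Dicer1/p53-deleted PBs, 3 Rb/Dicer1/p53-deleted PBs and 1 Rb/p53-deleted PB on version 2.0 arrays; points are tumors, bars the mean and SD of a group, and dashed lines the background level. Lrp5 (6.87 to 7.05 against 5.92 to 6.22), Fzd8 and Sfrp2 do not overlap between the Dicer1 models, and Frzb is high in 1 tumor (9.17).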

How the data were processed

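Total RNA of single samples was hybridized to Affymetrix Mouse Gene ST arrays (19 of version 1.0, 7 of version 2.0). Per the labels, the deposited log2 values per transcript cluster are RMA values that the authors made in Affymetrix Expression Console; its version and which arrays were processed together are not given in the sources used here. Version 1.0 values were quantile-normalized again over the 19 arrays; version 2.0 values were used as deposited, and the versions were never compared. Levels of different genes were not compared as amounts of RNA.

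Clusters with exactly 1 symbol were used, and a gene with several was represented by the cluster of highest mean. Members with several clusters were Wnt4 on version 1.0 arrays and Axin2, Lrp6 and Sfrp2 on version 2.0 arrays. The values of their other clusters are not given here. Each comparison was fitted with its own 2 groups in limma 3.58.1 (R 4.3.3) with empirical Bayes moderation, checked on simulated data, with Benjamini-Hochberg adjustment over all named genes, at 0.01 against cerebellum and 0.05 between tumors. The labels do not say which samples came from separate animals, so p-values measure the spread between these samples, which may be technical, and the number of arrays limits precision. Values of every array are given for members past the threshold by at least 1, and for those with the highest means; of the other pathway genes, up to 3 per direction. The members, marker lists and pathway list were chosen with earlier results of these data known. Figures were drawn with matplotlib 3.10.9. Alternatives are given in the closing section.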

Additional observations from a re-analysis of the deposited data

Results flagged for a closer look

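Among the 43 members, 22 differed between the mutated and the deleted tumors in their difference from cerebellum, which, with the same 3 cerebellum samples in both, is the comparison of the 2 tumor models (limma, adjusted p under 0.05; of all genes 20.7% were higher and 25.9% lower). The differences, mutated minus deleted, were -0.94 for Wnt2b, -0.68 for Wnt5a, -0.37 for Wnt8a, -0.34 for Wnt3, -0.34 for Wnt10b, -0.25 for Wnt9a, -0.23 for Wnt2, -0.22 for Wnt16, -0.22 for Wnt1, -0.21 for Wnt11 and -0.15 for Wnt5b among the ligands. Among receptors they were -0.74 for Fzd6, -0.44 for Fzd5, -0.42 for Fzd4, -0.47 for Lrp5 and -0.26 for Lrp6, and among Dickkopfs -0.45 for Dkk1 and -0.22 for Dkk4. On the higher side were Sfrp4 (0.67), Wnt7a (0.30), Lef1 (0.23) and Wnt7b (0.18). Sfrp4, Wnt7a, Wnt3 and Wnt1 were at background in both models, so the sizes of their differences carry no meaning. The calls of Dkk4, Fzd4, Wnt1, Wnt11, Wnt16, Wnt2, Wnt5b, Wnt7b and Wnt9a were lost in at least 1 fit without 1 of the 5 mutated tumors (adjusted p 0.052 to 0.12). The mutated tumors also had the separate deposited distribution, from which the genotype cannot be told apart. Most microglia markers were higher in them (8 of 11 higher, 1 lower, averages 8.94 to 9.48 against 8.38 to 8.81). So were some meningeal fibroblast markers (4 of 10 higher, 1 lower, averages 7.69 to 8.50 against 7.38 to 8.17). Endothelial and pericyte markers had 4 of 12 higher and 0 lower (averages 8.29 to 8.90 against 8.13 to 8.74). The part of these markers was not tested. In the group of 5 mutated tumors, none of the 43 members had a tumor far from the others by Dixon's 95% criterion.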

How the results depend on the processing

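For Rb/p53-deleted PBs against cerebellum, 11 members were higher and 11 lower; 15 of the 22 kept their call whichever cerebellum sample was left out, and the others were Axin2, Fzd4, Fzd8, Lrp6, Wnt2b, Wnt3a and Wnt6 (6 to 9 higher and 9 to 10 lower called). With PB11 and cerebellum as a block, each difference was PB11 alone minus the cerebellum mean, so no count is given for it. Without PB11 all 22 calls were kept. Lrp6 turned to -0.14 with the deposited values and to -0.10 with each array's median subtracted, and Axin2, Fzd4, Wnt3a and Wnt6 lost their calls under both. For Rb/p53-mutated PBs against cerebellum (3 higher, 17 lower), leaving out a sample gave 1 to 4 higher and 10 to 16 lower, and the deposited values gave 1 and 40, since all genes shifted by a median of -0.92; Lrp5 turned to -0.39 and Wnt10a to -0.64. For the mutated against the deleted tumors (4 higher, 18 lower), leaving out a sample gave 3 to 4 and 12 to 17, a filter on genes under the 25th percentile left 2 higher, and the deposited values gave 0 and 41, with Lef1 at -0.63, Sfrp4 at -0.16, Wnt7a at -0.51 and Wnt7b at -0.68. The counts for the Dicer1 models were 0 throughout (0 to 0 with a sample left out). With each array's median subtracted, Dkk1, Lrp5, Wnt10a, Wnt16, Wnt5a and Wnt8a lost their calls in the mutated tumors against cerebellum; with all 19 arrays in 1 fit, Dkk3, Fzd9, Wnt10a and Wnt5a did (adjusted p 0.022 to 0.13). Fitting all 19 arrays together, averaging clusters and a trended robust prior moved no count by more than 1.5 times. The shares of all genes called under each alternative are not given here, so changes in these counts are not results about the WNT genes.

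The same replicate numbers occur in several groups, and the labels do not say whether they pair samples. Correlations of deviations between same-numbered samples were -0.20 to 0.29, beside -0.41 to 0.30 between samples of other numbers. These ranges cannot decide whether samples were paired. With the number as a replicate block, the deleted model had 6 members higher than cerebellum, the mutated model 1 higher and 9 lower, and the mutated against the deleted tumors 8 lower. The causes of these changes were not tested.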
